A study of Homo sapiens with 8 samples.

Results

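The 35 genes described here encode the path by which a keratinocyte takes up glucose, splits it into pyruvate, and then either exports lactate or passes pyruvate to the mitochondrion. They were chosen by symbol, as a fixed list of 5 facilitative glucose transporters, 2 hexokinases, the enzymes from glucose-6-phosphate isomerase to pyruvate kinase, 3 bifunctional PFKFB enzymes, 2 lactate dehydrogenase subunits, 2 lactate transporters, and 8 genes of pyruvate import, pyruvate dehydrogenase and its kinases. All 35 have a row in the count table of 34415 gene symbols, and 33 of them held enough counts to be among the 13572 genes tested. The 2 that were not tested are the neuronal-type glucose transporter gene SLC2A3 and the pyruvate dehydrogenase kinase gene PDK4.

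The cells were HaCaT, an established, non-tumorigenic keratinocyte line that arose spontaneously from human skin, between passages 21 and 33. The siETV4 group was 4 cultures transfected for 48 h with a small interfering RNA (siRNA) against the ETS family transcription factor ETV4 (also called PEA3), and the siNC group was 4 cultures that received a negative-control siRNA for the same time. Both groups spent 96 h in RPMI-1640 with 35 mM glucose, and the cells had been kept at 5.5 mM glucose before. No library at the lower glucose concentration was analysed here, so every value below compares the siRNAs within high glucose. All cultures are of 1 cell line, and the submitters describe them as independent biological replicates.

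Glucose enters cells through SLC2A (GLUT) proteins down its gradient and is trapped by hexokinase as glucose-6-phosphate. Phosphofructokinase commits it to glycolysis under the control of fructose-2,6-bisphosphate, which the PFKFB enzymes make and break down, and the later enzymes recover ATP and leave pyruvate. Lactate dehydrogenase turns pyruvate into lactate, which leaves through monocarboxylate transporters, or the mitochondrial pyruvate carrier hands pyruvate to the pyruvate dehydrogenase complex, which the PDK kinases inhibit. Basal keratinocytes rely heavily on glycolysis, and many of these genes are known targets of the hypoxia-inducible factor HIF-1 and of MYC.

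The libraries held 35057643 to 41657753 counts. ETV4 itself fell to 1.83 to 3.10 CPM (counts scaled to library size, with TMM factors) in the siETV4 libraries, against 19.8 to 32.0 CPM in the siNC libraries, with a log2 fold change of -3.43 (SE 0.21, edgeR adjusted p 4.64e-05). All 11 keratinocyte markers were above 1 CPM in their mean over the libraries, with a summed level of 4900 to 5338 CPM in siETV4 and 5021 to 5585 CPM in siNC. Of these 11, KRT15 fell (log2 fold change -0.83) and KRT17 rose (0.95), each with an edgeR adjusted p of 0.00636. Of the markers of other cell types, 1 of 6 for fibroblasts, 2 of 5 for melanocytes, 1 of 3 for endothelium and 1 of 4 for immune cells averaged at least 1 CPM. Their summed levels were 4.16 to 5.34 CPM in siETV4 and 3.42 to 6.44 CPM in siNC for fibroblasts and 5.71 to 8.95 CPM in siETV4 and 4.25 to 8.21 CPM in siNC for melanocytes. Those of endothelium, mostly CDH5, were 15.2 to 21.9 CPM in siETV4 and 13.9 to 18.3 CPM in siNC, and those of immune cells, mostly CD68, 21.8 to 24.1 CPM in siETV4 and 16.2 to 23.6 CPM in siNC. COL1A2, LUM, MLANA, TYR and PTPRC were at 0 counts in all 8 libraries, while the fibroblast marker DCN was higher in every siETV4 library (0.345 to 0.937 CPM) than in any siNC library (0.0242 to 0.238 CPM), without passing (edgeR adjusted p 0.203). Their part in the results was not tested. One siNC library stood apart. Each library's deviation from the mean of all 8 was correlated, across genes, with the GC content of their transcripts, at Spearman's rho -0.65, 0.21, -0.58 and 0.02 in siETV4 replicates 1 to 4 and at 0.56, 0.53, 0.64 and -0.60 in siNC replicates 1 to 4, so that siNC replicate 4 had the sign of siETV4 replicates 1 and 3. The members' transcripts had a median GC content of 53.0%, against 48.4% over all tested genes. For this reason the results are also given without siNC replicate 4 and with each library's trend with GC content and gene length removed. The choice of siNC replicate 4 was made from these data, for a trend like that of siETV4 replicates 1 and 3. Leaving out a control library chosen in this way can widen the difference between the groups. The adjusted p values of the fits without siNC replicate 4 are therefore given as description only.

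No member passed the threshold between siETV4 and siNC with all 8 libraries. The threshold was an adjusted p under 0.05 in edgeR's quasi-likelihood test, adjusted over all 13572 genes, of which 32 (0.236%) passed. At an unadjusted p under 0.05 the fit had 11 members, 9 lower and 2 higher in siETV4, among 1708 genes (12.6%; 6.79% lower, 5.8% higher). DESeq2 called 1 member, SLC2A1, among 223 genes (1.64%). Of the 33 tested members 23 stood lower and 10 higher in siETV4, where 48.4% of all genes tested stood higher. The members' median log2 fold change was -0.17, against -0.01 over all genes tested. The members' counts made up 2.06 to 2.33% of each siETV4 library and 2.18 to 2.62% of each siNC library. In RNA from whole cultures, fewer cells with a transcript and less of it per cell cannot be told apart.

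Without siNC replicate 4 there were 12 members past the threshold, 8 lower and 4 higher, in a fit that called 2327 of 13783 genes (16.9%), 1654 higher (12%) and 673 lower (4.88%). The 8 that fell there were SLC2A1, SLC2A8, GPI, ALDOA, ALDOC, TPI1, GAPDH and PGK1, and the 4 that rose were SLC2A12, PFKFB2, LDHB and SLC16A1. With each library's trends in GC content and length removed, 2 members passed, SLC2A1 and LDHA, both lower, where 181 of 12470 genes (1.45%) passed, 0.77% higher and 0.682% lower, and the median of the members was -0.06. SLC2A1 was the only member past the threshold in both of these fits. With the trends removed and siNC replicate 4 left out, 871 of 12602 genes (6.91%; 4.57% higher, 2.34% lower) and 8 members passed, SLC2A1, GPI, PGK1, LDHA and MPC2 lower and SLC2A12, LDHB and SLC16A1 higher. In 18 of the 33 members the value of siNC replicate 4 lay within the range of the siETV4 libraries, against 11, 7 and 6 members for siNC replicates 1, 2 and 3.

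**Figure D1:**
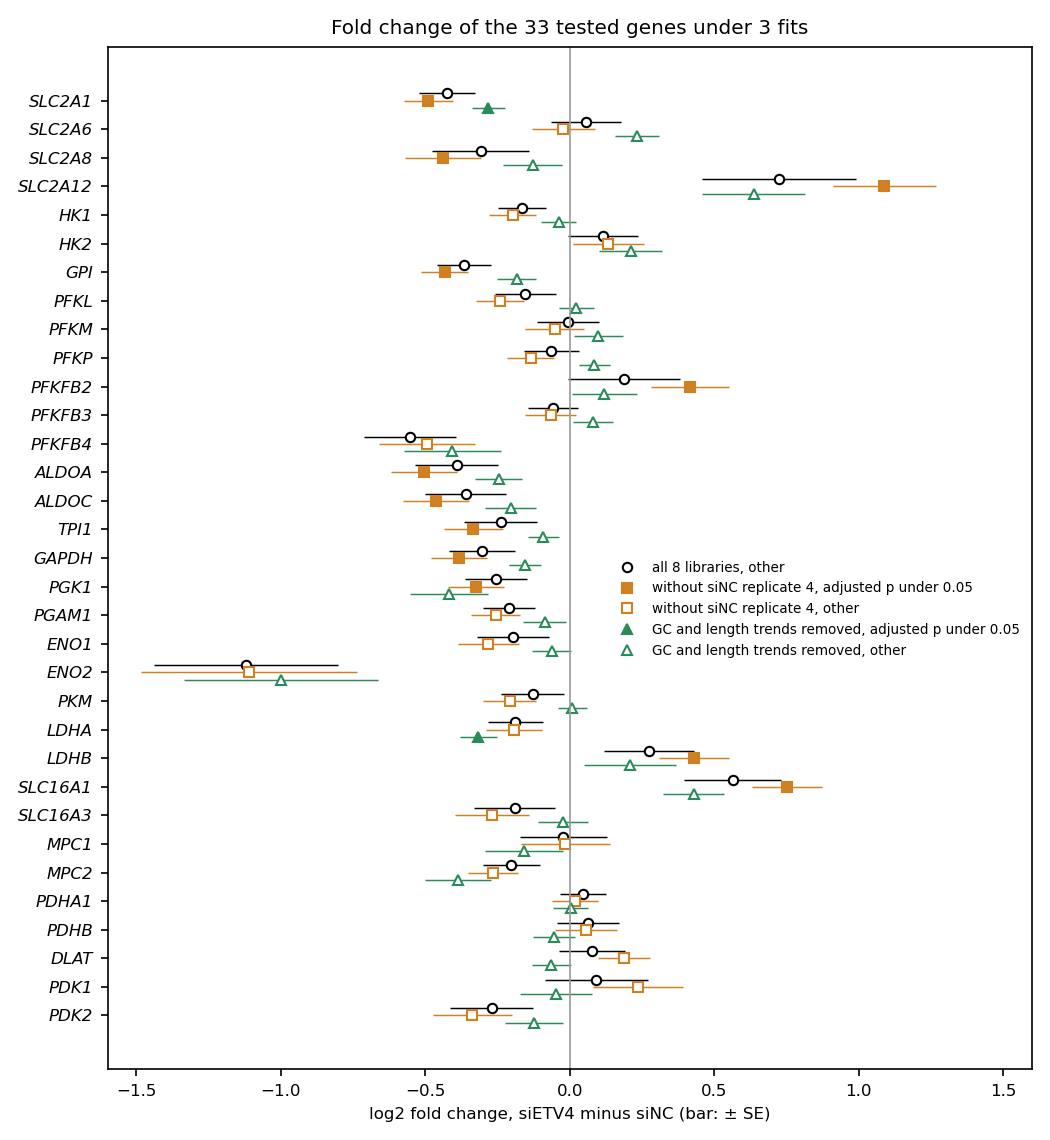
Log2 fold change of the 33 tested genes, siETV4 minus siNC (x axis; bars are ± SE), in pathway order from glucose transporters at the top to pyruvate dehydrogenase kinases, under 3 fits. Filled symbols passed an adjusted p under 0.05: none with all 8 libraries, 12 without siNC replicate 4, and SLC2A1 and LDHA with trends removed.

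The members differed widely in level. The levels in this and the next paragraph are the authors' FPKM, which divide by gene length and so allow genes to be compared. GAPDH, which oxidizes glyceraldehyde-3-phosphate, ranked 7 among all symbols by mean FPKM, at 3794 ± 282 FPKM in siETV4 and 4537 ± 522 FPKM in siNC (SD, n = 4 each). It was followed by pyruvate kinase PKM, LDHA, TPI1 and ENO1, at ranks 51, 61, 93 and 96. PGK1 and PGAM1, at ranks 179 and 191, complete the 7 members among the 200 most abundant symbols. The order within this group held in both groups of libraries, with PKM at 1262 ± 92.4 FPKM in siETV4 and 1337 ± 128 FPKM in siNC, and LDHA at 1063 ± 73.2 FPKM in siETV4 and 1174 ± 113 FPKM in siNC. TPI1, at 742 ± 82.7 FPKM in siETV4 and 849 ± 105 FPKM in siNC, and ENO1, at 712 ± 72.6 FPKM in siETV4 and 790.3 ± 97.7 FPKM in siNC, differed from each other by less than their SD. TPI1 was nevertheless the higher of these in every library.

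The steps before the triose phosphates stood far lower. The most abundant phosphofructokinase gene, PFKP, had 95.4 ± 3.63 FPKM in siETV4 and 96.7 ± 7.63 FPKM in siNC, and the most abundant hexokinase gene, HK1, had 21.9 ± 1.34 FPKM in siETV4 and 23.8 ± 0.682 FPKM in siNC. As deposited, the 2 aldolase genes were lower still, with ALDOC at 16.6 ± 1.83 FPKM in siETV4 and 20.6 ± 2.69 FPKM in siNC and ALDOA at 11.5 ± 1.11 FPKM in siETV4 and 14.6 ± 2.04 FPKM in siNC. ALDOA shares its span on chr16:30064279-30070420 (GRCh38.p14) with LOC112694756, which has counts of its own in the table, and the sources used here do not say how reads in both were treated, so the ALDOA level may be an undercount and its place in this order is uncertain. The length behind the FPKM also differs between genes. Among others, for GPI it is 11043 bases, against 4341 for its longest transcript in GENCODE v29, so GPI reads low per length, and for MPC1 it is 3909 against 1192 bases.

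**Figure D2:**
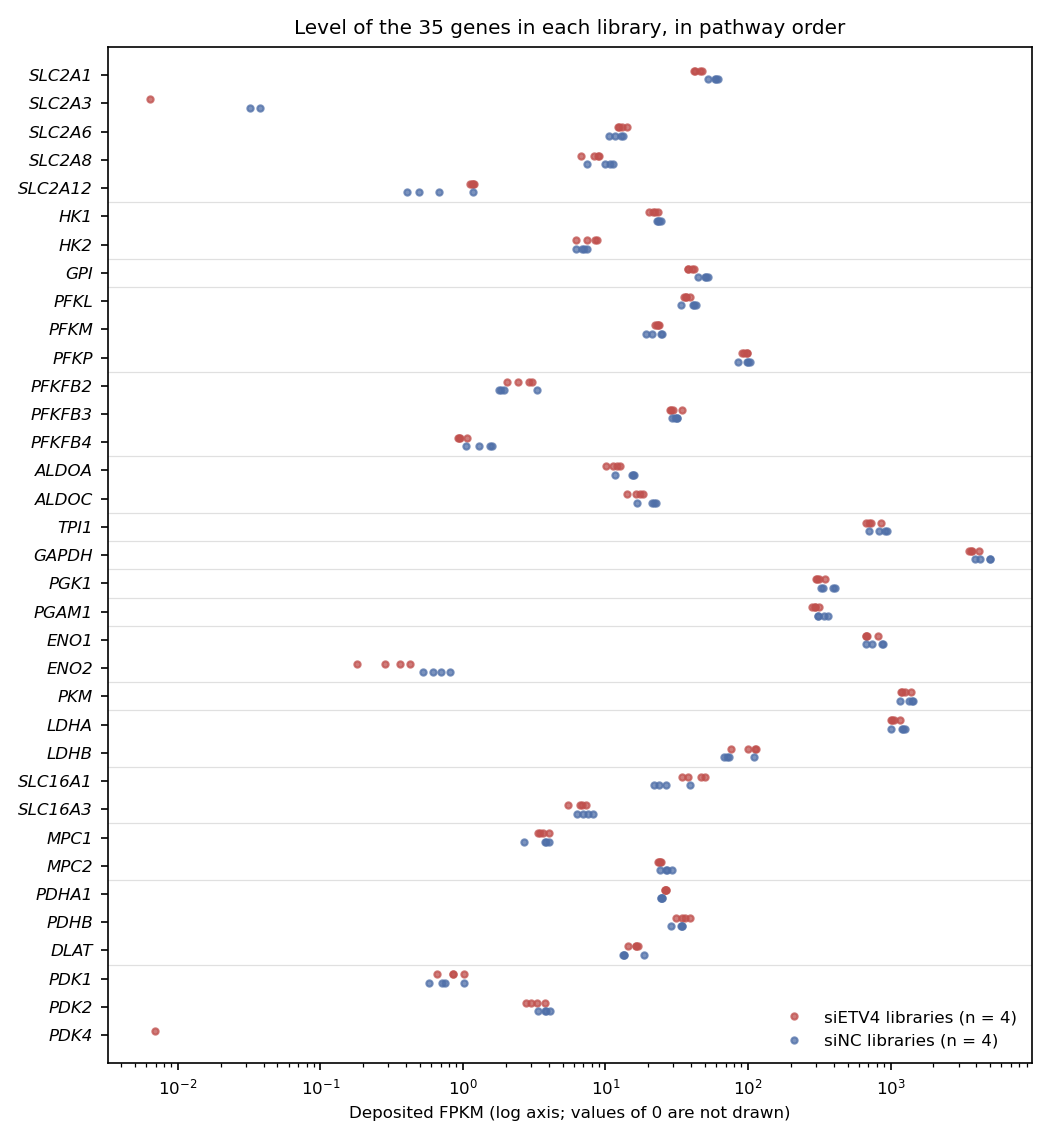
Deposited FPKM (log x axis) of the 35 genes in each library, in pathway order, with siETV4 libraries above siNC libraries within each gene and values of 0 left out. GAPDH, PKM and LDHA have means above 1000 FPKM in both groups, while SLC2A3 and PDK4 have a value in 3 libraries and 1 library.

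Among the glucose transporters, SLC2A1 (GLUT1, the main basal transporter of epidermis) was the member with the smallest p. Its siETV4 libraries had 142, 159, 136 and 158 CPM and its siNC libraries 213, 209.9, 203 and 172 CPM. Every siETV4 library lay below every siNC library, with siNC replicate 4 the lowest of its group. The log2 fold change was -0.42 (SE 0.10), with an edgeR adjusted p of 0.138 that did not pass. It was -0.49 (SE 0.09, adjusted p 0.00762) without siNC replicate 4 and -0.28 (SE 0.06, adjusted p 0.0340) with the trends removed, both by edgeR. SLC2A1 lies at chr1:42925353-42958868 on the minus strand.

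SLC2A12 (GLUT12) had its higher values in siETV4, with 9.64, 10.2, 9.50 and 9.34 CPM in siETV4 and 5.80, 3.54, 4.25 and 9.76 CPM in siNC. The 4 siETV4 libraries were nearly level, and siNC replicate 4 lay among them while the other siNC libraries were well below. Its log2 fold change was 0.73 (SE 0.27, edgeR adjusted p 0.339), and 1.09 (SE 0.18, edgeR adjusted p 0.00584) without siNC replicate 4. With the trends removed it was 0.64 (SE 0.18) and did not pass (edgeR adjusted p 0.113), while with siNC replicate 4 left out as well it was 0.80 (edgeR adjusted p 0.0113). SLC2A12 overlaps TBPL1 on the opposite strand, and the sources used here do not say whether counting used strand, which holds for each opposite-strand overlap named below.

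The intracellular transporters SLC2A6 and SLC2A8 overlapped between the groups. SLC2A6 had 32.2 to 38.3 CPM in siETV4 and 27.6 to 36.7 CPM in siNC libraries (log2 fold change 0.06, SE 0.12), and SLC2A8 had 19, 21, 15.2 and 20.7 CPM in siETV4 and 27, 24.3, 25.9 and 16.9 CPM in siNC libraries (log2 fold change -0.31, SE 0.17). SLC2A8 fell past the threshold without siNC replicate 4 (edgeR adjusted p 0.0380) but not with the trends removed (edgeR adjusted p 0.597). SLC2A3 (GLUT3), the neuronal-type transporter, held 1 count in all siETV4 libraries together and 11 counts in siNC, 6 in replicate 1 and 5 in replicate 3, with 0 in the other siNC libraries. A floor of 3 counts is 0.0721 CPM in the siETV4 library and 0.0726 CPM in the siNC library with the largest scaled size, so SLC2A3 was barely detectable at this depth.

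The transporters' shares of their summed FPKM were also compared within each library. SLC2A1 made up 66.2, 65.7, 67.1 and 67.2% of the summed FPKM of the 5 transporters in siETV4 and 71.3, 73.0, 70.3 and 73.2% in siNC, so the groups did not overlap. SLC2A6 made up 19.1, 20, 20.1 and 18.5% in siETV4 and 14.9, 14.3, 16.1 and 14.8% in siNC, again with no overlap, and siNC replicate 4 lay with its own group in both. SLC2A8 made up 12.3 ± 0.907% in siETV4 and 12.2 ± 1.25% in siNC. These shares were not tested, since they add up to the whole and the genes were chosen with earlier results known.

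**Figure D3:**
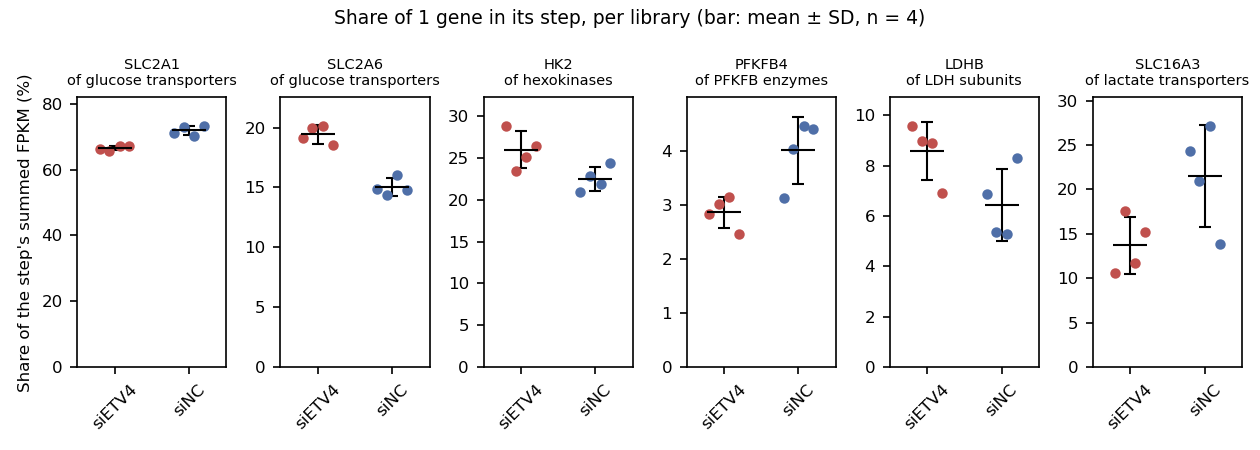
Share (%) of 1 gene in the summed FPKM of its step in each library, siETV4 left of siNC, with mean ± SD (n = 4). The SLC2A1 and SLC2A6 shares do not overlap between the groups, while those of HK2, PFKFB4, LDHB and SLC16A3 do.

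None of the hexokinase and phosphofructokinase genes passed the threshold in any fit run. HK1, the constitutive hexokinase, had 118, 113, 118 and 127 CPM in siETV4 and 132, 137, 141 and 125 CPM in siNC, where replicate 4 reached into the siETV4 range (log2 fold change -0.17, SE 0.08, edgeR adjusted p 0.423). HK2, the isoform induced by growth factors and hypoxia, had 36.7 to 50.5 CPM in siETV4 and 36.9 to 42.9 CPM in siNC libraries (log2 fold change 0.11, SE 0.12). HK2 thus held 23.5 to 28.8% of the hexokinase FPKM in siETV4 and 20.9 to 24.3% in siNC. PFKP, the most abundant phosphofructokinase gene, had 379, 413, 362 and 398 CPM in siETV4 and 409.9, 432, 436 and 345 CPM in siNC, with siNC replicate 4 below every siETV4 library. The liver-type PFKL, muscle-type PFKM and platelet-type PFKP genes had log2 fold changes of -0.15, -0.01 and -0.06 (SE 0.11, 0.11 and 0.09), and all 3 were positive, at 0.02 to 0.10, with the trends removed. PFKM was also positive, at 0.01 and 0.04, with RLE factors and with library size alone, and it overlaps SENP1 on the opposite strand.

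GPI, glucose-6-phosphate isomerase, was the enzyme of the path with the smallest p. It had 413, 452, 401 and 454 CPM in siETV4 and 573, 577, 591 and 477 CPM in siNC. The groups did not overlap, and siNC replicate 4 stood far below the other siNC libraries. Its log2 fold change was -0.37 (SE 0.09, edgeR adjusted p 0.184), and -0.43 (SE 0.08, edgeR adjusted p 0.00882) without siNC replicate 4. With the trends removed it was -0.18 (SE 0.07, edgeR adjusted p 0.221), and -0.22 (edgeR adjusted p 0.0495) when siNC replicate 4 was left out as well. GPI lies at chr19:34359718-34402413 on the plus strand.

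The PFKFB genes set the level of fructose-2,6-bisphosphate. PFKFB3, the form with the strongest kinase bias, made up 87.9 to 91.1% of their FPKM in siETV4 and 86.5 to 91.4% in siNC. It had 154, 156, 154 and 183 CPM in siETV4 and 169, 164, 175 and 166 CPM in siNC, with siETV4 replicate 4 above all others and the other siETV4 libraries below all siNC libraries (log2 fold change -0.06, SE 0.09). PFKFB4, a hypoxia-inducible form, was lower in every siETV4 library, with 5.45, 5.74, 6.09 and 5.48 CPM, against 6.39, 8.11, 9.54 and 9.35 CPM in siNC. Here siNC replicate 4 was high, with its own group. Its log2 fold change of -0.55 (SE 0.16) did not pass (edgeR adjusted p 0.239), nor did it without siNC replicate 4 (edgeR adjusted p 0.0542) or with the trends removed (edgeR adjusted p 0.283). PFKFB2, which overlaps YOD1 on the opposite strand, had 33.4, 24.2, 34.2 and 28.2 CPM in siETV4 and 22, 23.8, 21.5 and 37.8 CPM in siNC. The first 3 siNC libraries were below every siETV4 library and siNC replicate 4 above them all. Its log2 fold change was 0.19 (SE 0.19), and 0.42 (SE 0.13, edgeR adjusted p 0.0489) without siNC replicate 4.

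From the isomerase to pyruvate kinase, all 13 genes had a negative log2 fold change, and 12 of 13 with RLE factors or library size alone, where PFKM was positive. Over all tested genes 48.4, 50.4 and 55.1% were positive in these fits. Many of the 13 varied together over the 8 libraries (r 0.994 for GAPDH and PGK1, 0.985 for TPI1 and ENO1). Their signs are therefore not independent observations. PKM, the last enzyme, had 3932, 4746, 3891 and 4143 CPM in siETV4 and 4570.2, 4920.4, 4985 and 3787 CPM in siNC, again with siETV4 replicate 2 high and siNC replicate 4 low in their groups (log2 fold change -0.13, SE 0.11). Of the 13, 9 were negative with the trends removed, and PFKL, PFKM, PFKP and PKM were positive. GAPDH had 6091, 7382, 6209 and 6220.0 CPM in siETV4 and 7491, 8960.2, 8871 and 6655 CPM in siNC. The groups overlapped through siETV4 replicate 2, the high library of its group, and siNC replicate 4, the low one of its group. The log2 fold change of GAPDH was -0.30 (SE 0.12), and -0.38 (SE 0.10, edgeR adjusted p 0.0229) without siNC replicate 4. The genes of the steps around it, TPI1, PGK1, PGAM1 and ENO1, had log2 fold changes of -0.24, -0.26, -0.21 and -0.20 (SE 0.13, 0.11, 0.09 and 0.12), with edgeR adjusted p values from 0.385 to 0.515. Without siNC replicate 4, TPI1 was at -0.33 and PGK1 at -0.32 (edgeR adjusted p 0.0429 and 0.0372), while PGAM1 and ENO1 did not pass (0.0520 and 0.0780).

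TPI1, GAPDH and ENO1 shared one pattern over the libraries, which other members, among them PGK1, PKM and PFKL, also had. TPI1 had 1235, 1631, 1305 and 1296 CPM in siETV4 and 1578, 1827, 1759.5 and 1287 CPM in siNC, and ENO1 had 2079, 2629.9, 2072 and 2099 CPM in siETV4 and 2391, 2892, 2809.6 and 2081 CPM in siNC. In each of the 3 genes siETV4 replicate 2 was the highest siETV4 library and siNC replicate 4 the lowest siNC library, and these libraries also had the highest and the lowest correlation with GC content of their groups. The part of the GC content trend in these differences was not tested beyond the fit that removes it, where TPI1, GAPDH and ENO1 stood at -0.09, -0.15 and -0.06 (SE 0.05, 0.06 and 0.07).

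PGK1 and PGAM1 differed in how they stood up to that fit. PGK1, the first ATP-yielding kinase of the path, had 1416, 1679.8, 1462 and 1441 CPM in siETV4 and 1644, 1983, 2005 and 1531 CPM in siNC. Its log2 fold change was -0.42 (SE 0.14, edgeR adjusted p 0.171) with the trends removed, and -0.54 (SE 0.10, edgeR adjusted p 0.00451) when siNC replicate 4 was left out as well. PGAM1 had 553, 570, 579.9 and 529.9 CPM in siETV4 and 604, 680, 716 and 582 CPM in siNC, without overlap. Its log2 fold change was -0.09 (SE 0.07) with the trends removed. The transcript of PGK1 has a GC content of 43.3%, below the median of 48.4% over the tested genes, and that of PGAM1 52.8%.

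ENO2, the neuron-type enolase and a known hypoxia target, had the largest fold difference of the tested members and the lowest level per length. It held 17, 27, 39 and 34 counts in siETV4 and 77, 50, 49 and 65 counts in siNC. No siETV4 library reached a siNC library, and siNC replicate 4 lay inside its own group. The log2 fold change was -1.12 (SE 0.32, edgeR adjusted p 0.232). The difference was -1.11 on the log2 scale without siNC replicate 4 (edgeR adjusted p 0.0556), and the test did not pass with the trends removed either (edgeR adjusted p 0.190). ENO2 made up 0.0271 to 0.0623% of the enolase FPKM in siETV4 and 0.0604 to 0.108% in siNC, where only replicate 3 reached the siETV4 range.

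The aldolases had similar values. ALDOA had 21.3, 27.7, 24.8 and 24.1 CPM in siETV4 and 33.7, 35.8, 34.6 and 24.4 CPM in siNC, and ALDOC 24.2, 28.8, 29.2 and 31.4 CPM in siETV4 and 37.2, 41.2, 39.1 and 28.3 CPM in siNC. In both, siNC replicates 1 to 3 lay above every siETV4 library and siNC replicate 4 among the siETV4 libraries. Their log2 fold changes were -0.39 and -0.36 (SE 0.14 each), and -0.50 and -0.46 without siNC replicate 4 (edgeR adjusted p 0.0161 and 0.0209). They were -0.25 and -0.21 with the trends removed, and neither passed.

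**Figure D4:**
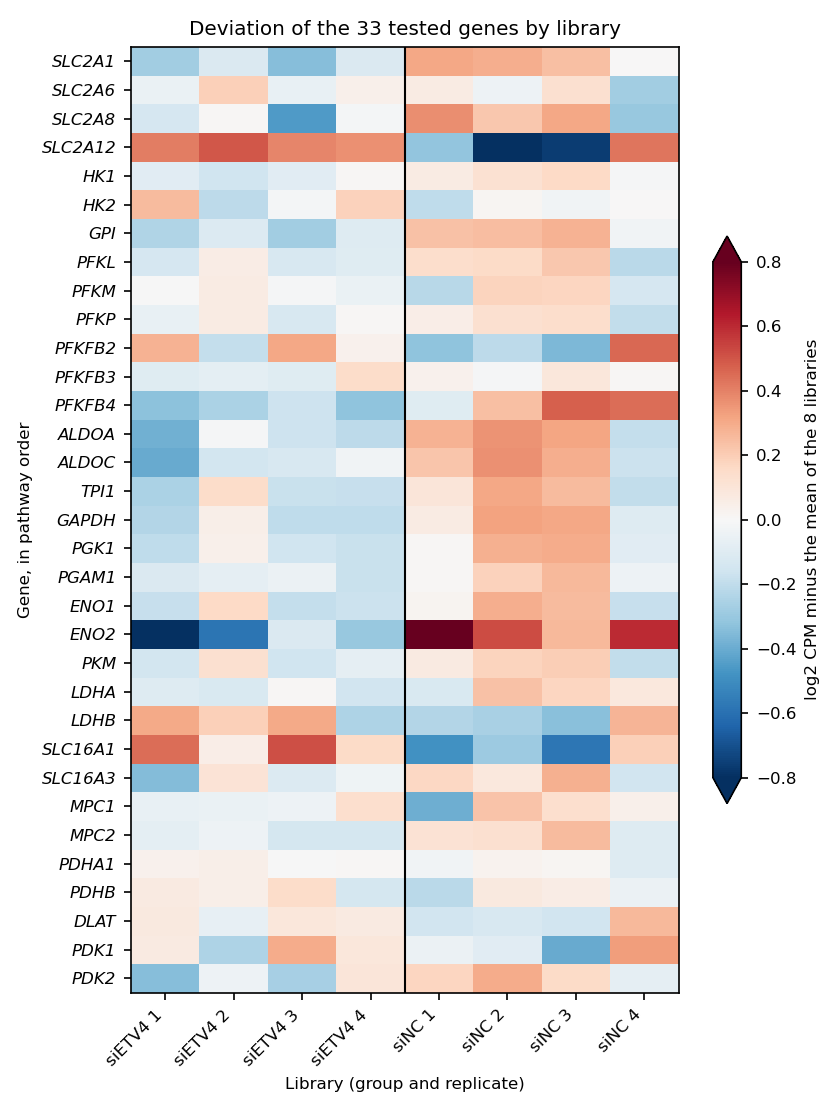
Log2 CPM of the 33 tested genes minus the mean of the 8 libraries, by library (siETV4 on the left, siNC on the right) and in pathway order. The siNC replicate 4 column is blue, like most siETV4 libraries, for most enzymes from PFKL to PKM. There siETV4 replicate 2 is pale red for PFKL, PFKM, PFKP, TPI1, GAPDH, PGK1, ENO1 and PKM. The siNC replicate 4 column is red for SLC2A12, PFKFB2, LDHB, SLC16A1, DLAT and PDK1. It is also red for PFKFB4 and ENO2, as are siNC replicates 2 and 3.

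Of the members whose groups did not overlap, 5 were lower in siETV4 (SLC2A1, GPI, PFKFB4, PGAM1 and ENO2) and 0 higher. That is 15.2% of the tested members lower, against 3.93% of all tested genes lower and 2.62% higher (6.55% either way) without overlap. These shares are of CPM scaled with TMM factors and depend on that scale. In deposited FPKM, siETV4 replicate 3 stood above siNC replicate 1 for PGAM1 (316 against 311 FPKM) and PFKFB4 (1.064 against 1.056 FPKM), so both overlapped.

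The 2 lactate dehydrogenase subunits had log2 fold changes of opposite sign. LDHA, the subunit that favours lactate formation, had 2591, 2563, 2808 and 2506 CPM in siETV4 and 2558, 3281, 3134 and 2957 CPM in siNC. Only siNC replicate 1 reached down into the siETV4 range, and siNC replicate 4 lay above it. LDHA had a log2 fold change of -0.19 (SE 0.09, edgeR adjusted p 0.430). With the trends removed the value was -0.32 (SE 0.06), past the threshold with an edgeR adjusted p of 0.0306, while leaving out siNC replicate 4 alone did not make it pass (edgeR adjusted p 0.168). LDHA has a transcript GC content of 44.0%, and it lies at chr11:18394563-18408425 on the plus strand.

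LDHB, the subunit that favours pyruvate formation, had 214, 198, 214 and 146 CPM in siETV4 and 147, 145, 137 and 209 CPM in siNC. One library of each group lay among the other group, siETV4 replicate 4 and siNC replicate 4. LDHB had a log2 fold change of 0.27 (SE 0.16, edgeR adjusted p 0.483), and 0.43 (SE 0.12, edgeR adjusted p 0.0309) without siNC replicate 4. With the trends removed as well it was 0.40 (edgeR adjusted p 0.0417). LDHB made up 6.93 to 9.56% of the lactate dehydrogenase FPKM in siETV4 and 5.30 to 8.29% in siNC, so LDHA supplied most of it in every library, at 90.4 to 93.1% in siETV4 and 91.7 to 94.7% in siNC.

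SLC16A1 (MCT1), which carries lactate and pyruvate across the plasma membrane, was the abundant member with the largest positive difference. It had 207, 157, 217 and 169 CPM in siETV4 and 108, 124, 101 and 173 CPM in siNC. The siNC replicates 1 to 3 lay below every siETV4 library and siNC replicate 4 among them. SLC16A1 had a log2 fold change of 0.56 (SE 0.17, edgeR adjusted p 0.258), or 0.75 (SE 0.12, edgeR adjusted p 0.00584) without siNC replicate 4. It was 0.43 (SE 0.11) with the trends removed and did not pass (edgeR adjusted p 0.0723), and 0.53 (edgeR adjusted p 0.00306) when siNC replicate 4 was left out as well. SLC16A1 lies at chr1:112911847-112956196 on the minus strand.

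SLC16A3 (MCT4), the lactate exporter of glycolytic cells, had 17.5 to 24 CPM in siETV4 and 20 to 27.1 CPM in siNC libraries (log2 fold change -0.19, SE 0.14). It overlaps CSNK1D, a more abundant gene on the opposite strand. Of the summed FPKM of the 2 transporters, SLC16A3 made up 10.5, 17.5, 11.7 and 15.2% in siETV4 and 24.3, 20.9, 27.1 and 13.8% in siNC. The share was thus lower in every siETV4 library than in siNC replicates 1 to 3, while siNC replicate 4 lay within the siETV4 range.

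**Figure D5:**
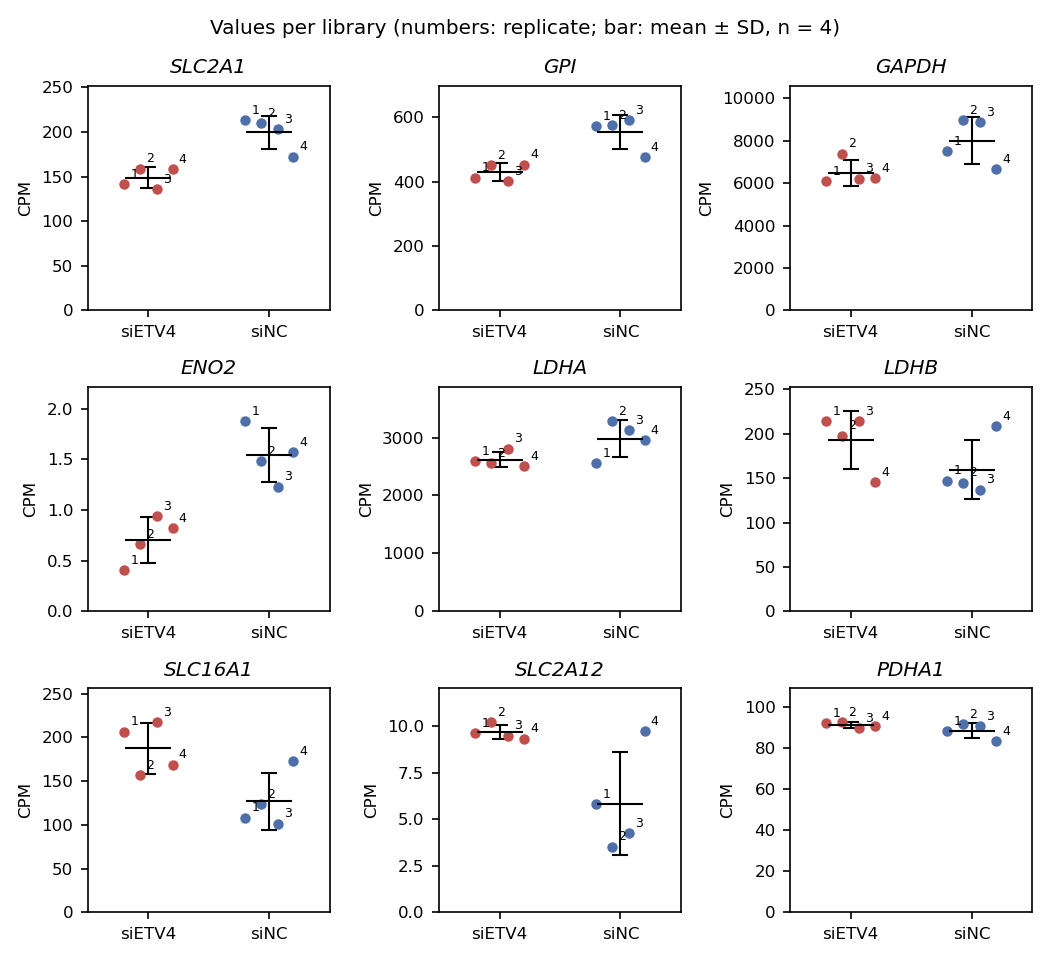
CPM per library of 9 members (points, numbered by replicate; bars are mean ± SD, n = 4), siETV4 left of siNC. For SLC2A1, GPI and ENO2 the groups do not overlap, while siNC replicate 4 lies among the siETV4 libraries for LDHB, SLC16A1 and SLC2A12.

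Differences were small among the genes that take pyruvate into the mitochondrion. MPC1 and MPC2 encode the subunits of the mitochondrial pyruvate carrier. MPC2 had 59.6, 61, 57.1 and 57.1 CPM in siETV4 and 68.2, 68.6, 75 and 58.5 CPM in siNC, where replicate 4 alone lay within the siETV4 range (log2 fold change -0.20, SE 0.10), and MPC1 had 13.4 to 15.4 CPM in siETV4 and 10.7 to 16.4 CPM in siNC libraries (log2 fold change -0.02, SE 0.15). Among the fits run, MPC2 fell past the threshold only with the trends removed and siNC replicate 4 left out (log2 fold change -0.50, SE 0.08, edgeR adjusted p 0.00279). MPC2 overlaps DCAF6 on the opposite strand.

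PDHA1 and PDHB, the subunits of the decarboxylating enzyme of pyruvate dehydrogenase, and DLAT, its acetyl-transferring core, had log2 fold changes of 0.05, 0.06 and 0.08 (SE 0.08, 0.11 and 0.11). PDHB, which ranks first of them by deposited FPKM on a length of 1507 bases, against 4459 for its longest GENCODE v29 transcript, had 53.9, 53, 56.7 and 46.6 CPM in siETV4 and 44.1, 54.2, 53.4 and 49.6 CPM in siNC, and the groups overlapped. PDHA1 averaged 91.1 ± 1.3 CPM in siETV4 and 88.3 ± 3.59 CPM in siNC. In DLAT, siNC replicate 4 had 71.4 CPM and the other siNC libraries 53.6 to 54.7 CPM, against 57.0 to 63.5 CPM in siETV4. PDK2, which made up most of the kinase FPKM, had 11.2, 13.8, 11.8 and 15.2 CPM in siETV4 and 16, 17.5, 15.8 and 13.5 CPM in siNC, where replicate 4 was again the lowest of its group (log2 fold change -0.27, SE 0.14). PDK1, a hypoxia target, averaged 12.6 ± 1.91 CPM in siETV4 and 11.8 ± 2.50 CPM among siNC libraries (log2 fold change 0.09, SE 0.18). PDK4, which starvation and fatty acids induce, held 1 count in siETV4 and 0 in siNC over all libraries, and the siNC floor of 3 counts over the group is 0.0193 CPM.

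Promoter sequence was found for 32 of the 35 members in the RefSeq windows of GRCh38.p14. The others are SLC2A3, PFKFB2 and SLC16A1. The windows run from 250 bases before to 50 after 1 start site per gene, which is not always the outer end of its span. For GPI the window, chr19:34364742-34365041, lies inside the span given above. Windows of some other members, among them SLC16A3, PFKFB4 and GAPDH, also lie inside their spans. Those printed here sit at the outer end. The windows below are those of the 2 members past the threshold with the trends removed, SLC2A1 and LDHA, and of PGK1 and ALDOC. The latter hold the most matches among members past it without siNC replicate 4, if an E-box counts as CACGTG and as ACGTG on each strand. By separate sites ALDOC did not exceed GPI, which held 1 ACGTG and 1 CGGAAG core. Capitals mark ACGTG, the core of the hypoxia response element, CACGTG, an E-box that MYC binds, which contains ACGTG on both strands, and CGGAAG or AGGAAG, cores that ETS factors bind, each on either strand.
SLC2A1: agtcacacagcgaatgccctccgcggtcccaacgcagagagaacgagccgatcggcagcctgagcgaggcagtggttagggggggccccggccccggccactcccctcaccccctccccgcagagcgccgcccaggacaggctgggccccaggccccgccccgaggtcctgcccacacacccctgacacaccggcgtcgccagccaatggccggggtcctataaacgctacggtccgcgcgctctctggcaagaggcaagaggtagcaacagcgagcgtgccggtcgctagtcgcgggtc
LDHA: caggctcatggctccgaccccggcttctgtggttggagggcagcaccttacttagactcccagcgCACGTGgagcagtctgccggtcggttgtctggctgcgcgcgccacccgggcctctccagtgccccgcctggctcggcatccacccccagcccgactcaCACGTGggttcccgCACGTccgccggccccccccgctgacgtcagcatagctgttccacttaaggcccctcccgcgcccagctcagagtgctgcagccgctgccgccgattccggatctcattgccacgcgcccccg
PGK1: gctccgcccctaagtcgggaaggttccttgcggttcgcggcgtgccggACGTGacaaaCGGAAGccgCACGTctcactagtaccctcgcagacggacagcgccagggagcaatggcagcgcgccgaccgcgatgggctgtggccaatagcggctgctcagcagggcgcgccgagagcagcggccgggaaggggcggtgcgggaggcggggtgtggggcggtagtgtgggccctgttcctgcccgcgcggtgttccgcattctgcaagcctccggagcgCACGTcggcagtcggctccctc
ALDOC: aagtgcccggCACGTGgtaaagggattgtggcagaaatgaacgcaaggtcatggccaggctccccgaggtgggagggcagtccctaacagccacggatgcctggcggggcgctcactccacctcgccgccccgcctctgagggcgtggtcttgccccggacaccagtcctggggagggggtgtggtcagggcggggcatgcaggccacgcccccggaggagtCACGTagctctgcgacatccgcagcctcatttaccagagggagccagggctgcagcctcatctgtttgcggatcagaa
The windows are chr1:42958819-42959118 (minus strand), chr11:18394313-18394612 (plus), chrX:78103998-78104297 (plus) and chr17:28576846-28577145 (minus), all written 5′ to 3′ on the gene's strand.

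The LDHA window held 2 E-boxes, from 185 and 87 bases before the start, and a further ACGTG core on the reverse strand 73 bases before it. PGK1 held 3 ACGTG cores and 1 CGGAAG core, and ALDOC 1 E-box and 1 further ACGTG core. None of the 4 motifs was found in the SLC2A1 window. Over the tested members 10 of 31 windows (32.3%) held ACGTG, against 26.8% of the windows of all tested genes, and 4 (12.9%) held CACGTG, against 10.1%. An ETS core of either form was in 12 of 31 (38.7%), against 55.4% of all tested genes and 47.2% of all promoters. The matches describe these windows alone, and they were not tested as sites.

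The neighbouring pathways were described from lists of textbook genes. Of 51 further genes of glucose uptake, glycolysis, gluconeogenesis and pyruvate handling 28 were tested and 0 passed with all 8 libraries, with 16 positive and 12 negative and a median log2 fold change of 0.11. The most abundant was BSG (basigin, the chaperone of MCT1 and MCT4), at 1311 ± 89.9 CPM in siETV4 libraries and 1388 ± 128 CPM in siNC libraries (log2 fold change -0.08, SE 0.09). None of the 10 pentose phosphate genes passed (median -0.05), and its most abundant genes TALDO1 (transaldolase) and TKT (transketolase) stood at -0.11 and -0.29 (SE 0.11 and 0.10). Of the 19 tricarboxylic acid cycle genes 0 passed (median -0.10), with the malate dehydrogenase gene MDH2 at -0.10 (SE 0.10). Without siNC replicate 4, 12% of all tested genes passed higher and 4.88% lower. In that fit the further genes had 9 higher and 1 lower of 29 tested, and the pentose phosphate genes 1 and 3 of 10. The cycle genes had 2 and 3 of 19, the regulators below 2 and 3 of 15, and the hypoxia response genes below 2 and 5 of 19. With the trends removed, 1 further gene passed, higher, where 0.77% of all genes passed higher. The pentose phosphate genes, cycle genes and regulators had 0 there.

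Among 15 tested regulators of glycolytic genes 0 passed, with 6 positive and 9 negative and a median log2 fold change of -0.04. HIF1A had a log2 fold change of 0.09 (SE 0.26), the related HIF subunit gene EPAS1 one of -0.45 (SE 0.11, edgeR adjusted p 0.188) and MYC one of -0.32 (SE 0.10, edgeR adjusted p 0.290). TXNIP, a glucose-induced arrestin that holds back GLUT1, was higher in every siETV4 library than in any siNC library, at a log2 fold change of 0.40 (edgeR adjusted p 0.188), which did not pass. No other of the 15 regulators was without overlap, and 2.62% of all tested genes were higher without overlap. Hypoxia response genes outside the members had 2 of 19 past the threshold, both lower, where 0.118% of all tested genes passed lower. They were the stress-response gene NDRG1 and the microRNA host gene MIR210HG (log2 fold changes -0.69 and -1.06, edgeR adjusted p 0.0114 and 0.0357). Of the 19, 15 were negative, with a median of -0.27. Over the members the median was -0.17 with 23 of 33 negative. With the trends removed, 5 of the 19 hypoxia response genes passed, all lower, against 0.682% of all genes lower. Their median was then -0.33, against -0.06 over the members. The difference between these lists was not tested.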

How the data were processed

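The authors deposited raw counts per gene symbol and, for the same symbols and libraries, FPKM values. Per the submitters' processing notes, they used hg38 and R 3.2.0, in roles that the notes leave unnamed. The sources used here name no aligner, counter, annotation or strand setting. Dividing a deposited count by its library total and the FPKM value gives a gene length that was constant between libraries within a relative tolerance of 1e-06 for 20584 of 20585 genes above 0. FPKM was used to compare levels between genes and for shares within a step.

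Counts were filtered with edgeR's filterByExpr (minimum count 10), scaled by TMM and tested gene by gene with edgeR 4.0.16 (quasi-likelihood test, siRNA as the only term) in R 4.3.3, with p-values adjusted by Benjamini and Hochberg's method across the tested genes. Log2 fold changes are siETV4 minus siNC. Means are ± SD. At the mean depth 1 CPM is 40.1 counts, and floors of 3 counts cover counting error only. The p-values set the difference between the groups against the spread between these cultures.

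Alternatives were RLE factors, library size alone, other filters and thresholds, DESeq2 1.42.0, limma-voom and limma-trend (limma 3.58.1) on log2(FPKM + 1 or + 0.1) with a mean FPKM of at least 0.5 or none, a robust fit, the replicate number as a block, and each library left out. Offsets removed each library's trend with GC content (longest GENCODE v29 transcript, found for 91.9% of tested genes and all 33 tested members) and gene length, by splines with 5 degrees of freedom. The code was checked on simulated counts with known changes, which were larger than those of nearly all members. The simulated counts held no trend with GC content or length, so that check does not cover the removal of such trends.

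Values in every library are given for members that passed in the fit of all libraries, in the fit lacking siNC replicate 4 or with the offsets, for the most abundant gene of each step, and for the 3 highest and 3 lowest log2 fold changes, and a few more were added. Of other genes, up to 2 most abundant per list and those that passed are named. HIF1A, EPAS1, MYC, TXNIP and the marker genes with values were singled out after their values were seen. The members and lists were chosen with earlier results of these data known. Gene positions and promoters are from RefSeq (GRCh38.p14).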

Additional observations from a re-analysis of the deposited data

Results flagged for a closer look

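In each group the highest or lowest of the 4 libraries was compared with its nearest neighbour by Dixon's ratio. Of 66 groups (33 members in siETV4 and in siNC) 10 held a library past the 95% critical value, where about 3.3 would be expected by chance at 1 in 20. In siETV4, replicate 2 stood apart for 4 members. It had 161 CPM for PFKL (others 141 to 145), 7382 CPM for GAPDH (6091 to 6220.0), 2629.9 CPM for ENO1 (2072 to 2099) and 57.0 CPM for DLAT (62.6 to 63.5). Replicate 4 of siETV4 stood apart for PFKFB3, at 183 CPM (154 to 156), and for MPC1, at 15.4 CPM (13.4 to 13.6). In siNC, replicate 4 stood apart for 4 members. It had 477 CPM for GPI (573 to 591), 37.8 CPM for PFKFB2 (21.5 to 23.8), 209 CPM for LDHB (137 to 147) and 71.4 CPM for DLAT (53.6 to 54.7).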

How the results depend on the processing

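The members' direction and side of the threshold held in 656 of the values computed under alternatives, 23 passed the threshold only under an alternative, and 45 changed sign. With all 8 libraries 32 genes and 0 members passed. The number of genes was 54 with no filter, 223 with DESeq2, 59 with limma-trend on log2(FPKM + 1) and 59 with log2(FPKM + 0.1), and 9 or 60 at an adjusted p under 0.01 or 0.10. DESeq2 called 1 member. Leaving out 1 library gave 9 to 2327 genes and 0 to 12 members, with 2327 and 12 for siNC replicate 4 alone. The other libraries gave 0 members and 10, 15, 9 and 16 genes (siETV4 replicates 1 to 4) or 13, 10 and 13 genes (siNC replicates 1 to 3).

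With GC content and length offsets, 181 genes and 2 members passed and the members' median was -0.0633. Those values were 871, 8 and -0.0620 when siNC replicate 4 was left out as well. With offsets and the replicate block, 82 genes and 0 members passed, with a median of -0.0627. Since the GC trend itself differed between the groups, the offsets also remove any difference between siRNAs that follows GC content, and these cannot be told apart. The replicate block without offsets gave 4 genes and 0 members, and it left SLC2A1 and the other members on the same side of the threshold as the unblocked fit of all libraries. Same-numbered libraries did not deviate together (r -0.09, 0.30, -0.14 and -0.19), and 2 of 8 libraries correlated best with their own number, so the numbers were not taken to pair the cultures.

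Small differences changed sign; the cause was not tested. Under offsets, offsets without siNC replicate 4, and offsets with the block, the log2 fold changes were 0.0227, 0.0226 and 0.0221 for PFKL, 0.0980, 0.0997 and 0.102 for PFKM, 0.0855, 0.0880 and 0.0852 for PFKP, 0.0804, 0.138 and 0.0820 for PFKFB3, 0.00920, 0.00286 and 0.00771 for PKM, -0.0548, -0.0620 and -0.0550 for PDHB, -0.0642, -0.0226 and -0.0627 for DLAT, and -0.0480, -0.0890 and -0.0488 for PDK1. PDHA1 was -0.0136 with offsets and without siNC replicate 4. PFKM was 0.00948 with RLE factors, 0.0400 with library size alone, 0.00952 with DESeq2, 0.00655 with limma-voom, 0.00411 with the replicate block, and 0.0457 (also unfiltered) and 0.0478 on the FPKM scales. MPC1 was 0.0225 with library size alone, 0.0259 (also unfiltered) and 0.0352 on the FPKM scales. Leaving out single libraries gave -0.0218 to 0.110 for SLC2A6, -0.0754 to 0.0546 for PFKM, -0.138 to 0.0527 for MPC1 and -0.0143 to 0.236 for PDK1.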
